A study of Mus musculus with 2 samples.

Results

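Adamdec1 lamina propria fibroblasts are described here in 2 single-cell RNA-seq libraries of mouse intestinal stroma. The cells were chosen by what they transcribed. A barcode was a member when it held at least 3000 UMIs (unique molecular identifiers, 1 per captured RNA molecule), at most 20% mitochondrial UMIs, at least 1 UMI of Pdgfra and none of Ptprc, Epcam or Pecam1. It also had to show at least 3 of the 6 genes Adamdec1, Ereg, Fgfr2, Col6a5, Lrat and Scube1, and fewer genes of each of 3 other sets of 6. Those sets were Pi16, Has1, Mfap5, Cd248, Pcolce2 and Emilin2 (the Pi16 group), Lpl, Penk, Plau, Alkal2, Col6a6 and Dpep1 (the Lpl-Penk-Plau group), and Grem1, Stc2, Ackr4, Col8a1, Gdf6 and Serpina3n (the Grem1-Ackr4 group). This selection gave 1224 Adamdec1 fibroblasts among 5948 Pdgfra-positive barcodes and 13168 barcodes past the UMI and mitochondrial limits.

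Each genotype had 1 library, and how many mice were pooled is not given in the sources used here. The ApcMin library came from ApcMin/+;Lef1 +/+ mice and the VApcMinL library from ApcMin/+;Lef1 fl/fl; Villin-Cre mice, all C57BL/6 and 11 weeks old by the labels and methods, with 10 weeks given elsewhere in the sources used here. By the methods the Lef1 fl/fl line had a mixed background and was backcrossed to C57BL/6 before use. Only the VApcMinL library carries that allele. Both genotypes carry the ApcMin allele, which gives intestinal adenomas, so no library is free of it. Villin-Cre acts in the intestinal epithelium, and Lef1 was therefore targeted outside the cells described here. Lef1, a transcription factor of the Wnt pathway, had 0 UMIs in the ApcMin and 8 in the VApcMinL Adamdec1 fibroblasts, and it checks neither label, because the epithelium was removed by the sort. Stroma was sorted as DAPI-, Ter119-, Epcam- and CD45- cells. With 1 library per genotype no test between genotypes was possible, the genotype cannot be told apart from the library, and the intervals given are exact 95% intervals that cover counting error only.

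Fibroblasts of the lamina propria lie beneath the gut epithelium and make the matrix, growth factors and chemokines that surround it. Cells close to the epithelium are known for Wnt and BMP ligands, and fibroblasts around the crypt base for BMP antagonists such as Grem1 that favour stem cells. Hedgehog protein from the epithelium acts on these fibroblasts through Ptch1 and Foxf factors. ADAMDEC1 is a secreted protein related to ADAM metalloproteases and is a known transcript of gut stroma and macrophages.

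The libraries held 93203061 UMIs (ApcMin) and 101609269 UMIs (VApcMinL). In the Adamdec1 fibroblasts the median was 12116 UMIs and 3696 genes in ApcMin, and 9311 UMIs and 3164 genes in VApcMinL. Summed over members, the depth was 4709139 and 8393708 UMIs, and levels below are UMIs scaled to a common total (CPM) over these sums. Of the barcodes past the limits, 18 sequences occurred in both libraries, and 0 of these were members. All 6 general fibroblast genes listed were found in members, where they summed to 29357 and 21633 CPM, under the 30024 to 54567 CPM and 28789 to 48521 CPM of the other fibroblast groups. The collagen gene Col3a1 was at 6503 CPM in ApcMin and 4390 CPM in VApcMinL, and Col1a1 was at 2927 and 2285 CPM. Dcn, which encodes the matrix proteoglycan decorin, was at 14247 and 10702 CPM, but it was also found in 44.7% and 47.4% of B cells, which should lack it.

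Adamdec1 fibroblasts were 376 of 2994 Pdgfra-positive barcodes in ApcMin (12.6%, interval 11.4 to 13.8%) and 848 of 2954 in VApcMinL (28.7%, interval 27.1 to 30.4%). Their share was 2.29 times as large in VApcMinL (interval 2.02 to 2.59). The Pi16 group moved the other way, from 25.3% to 12.4%, and the Lpl-Penk-Plau group went from 28.6% to 23.8%. The Grem1-Ackr4 group made up 16.1% and 17.5%, with a ratio of 1.09 and an interval of 0.960 to 1.24 that includes no difference. All shares come from 1 sort and 1 total, so a larger share of 1 group lowers the others. Of all barcodes past the UMI and mitochondrial limits, the Adamdec1 fibroblasts made up 5.70% and 12.9%. When each barcode was thinned to 3000 UMIs before the selection, 238 of 2510 and 631 of 2686 were members, a ratio of 2.48.

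**Figure D1:**
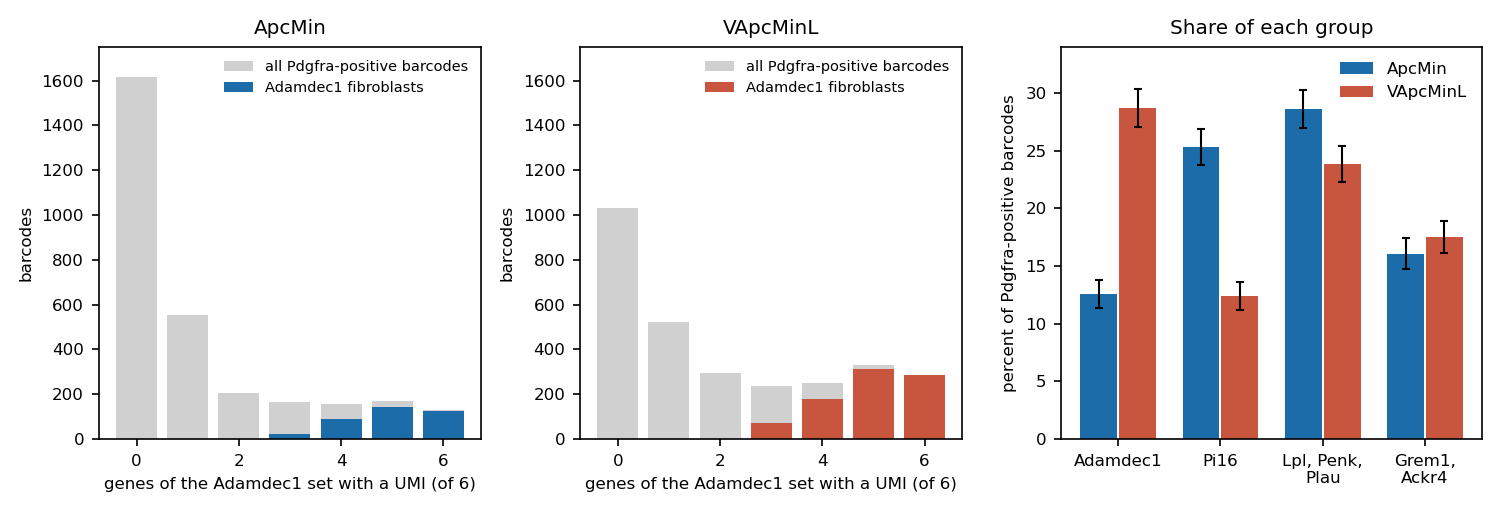
Left and middle, Pdgfra-positive barcodes (grey bars) and Adamdec1 fibroblasts among them (coloured bars) by how many of the 6 genes of the Adamdec1 set had a UMI. Right, share of each fibroblast group in percent of Pdgfra-positive barcodes, with exact 95% Clopper-Pearson intervals as error bars and 1 library per genotype; the Adamdec1 share was 12.6% in ApcMin and 28.7% in VApcMinL.

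The genes used for the selection are given as a description only. Adamdec1 was at 8795 CPM in ApcMin members (8711 to 8881) and 11026 CPM in VApcMinL members (10955 to 11097). In the 3 other groups it ranged from 33.6 to 169 CPM in ApcMin and from 133 to 310 CPM in VApcMinL. All ApcMin members and 99.5% of VApcMinL members had a UMI of Adamdec1. B cells, with a median of 5073 and 4844 UMIs, had one in 8.58% and 16.6% of cells, so free Adamdec1 RNA was present in both libraries.

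Ereg encodes epiregulin, a ligand of the EGF receptor, and was at 584 and 684 CPM in members. Fgfr2, a receptor of fibroblast growth factors, was at 228.5 and 329.5 CPM. Col6a5, a chain of collagen VI, was at 297 and 455 CPM. Of the 6 genes Lrat alone was lower in VApcMinL members. Lrat, the enzyme that esterifies retinol, was at 488 and 351 CPM, and it was shared with the Grem1-Ackr4 group at 181 and 125 CPM. Scube1, which encodes a secreted and membrane-bound EGF-like protein, was at 203 and 236 CPM.

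Most members showed more than the 3 genes needed. In ApcMin 21 members showed 3 of the genes, 88 showed 4, 142 showed 5 and 125 showed all 6. The numbers in VApcMinL were 72, 179, 312 and 285. Members with 3 genes had Adamdec1 at 3509 and 6337 CPM. Just outside, the 207 and 293 barcodes with 2 genes had it at 305 and 797.5 CPM. Another 59 and 83 barcodes with 3 or more genes tied with another set, and 186 and 176 showed more genes of another set. The set that members approached next was most often Grem1-Ackr4 in ApcMin (264 of 376, ties counted in each set), and Lpl-Penk-Plau (528 of 848) or Grem1-Ackr4 (513) in VApcMinL. Grem1, the BMP antagonist gremlin, was at 605 and 450.5 CPM in members, against 2693 and 2712 CPM in the Grem1-Ackr4 group.

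Outside the genes of the selection, a group of genes stood far above the 3 other fibroblast groups. Mmp10, P2rx1, Sertm1, Adgrl3, Col6a4 and Bmp5 were near 0 in the other groups and present in members of both libraries. Ogn, Cd81 and Ebf1 were several times lower in members. Since the 4 groups were made by 1 rule on the same cells, these differences describe the selection and nothing is read from their number. Of 11070 genes with at least 200 UMIs, 219 (1.98%) were past 2-fold over the highest of the other groups in both libraries, and 175 (1.58%) were past 2-fold under the lowest. Against the mean of the 3 groups the numbers were 484 over (4.37%) and 544 under (4.91%), around a median log2 ratio over all genes of 0.12 in ApcMin and 0.18 in VApcMinL.

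Mmp10, which encodes the matrix metalloprotease stromelysin 2, was at 338 CPM in ApcMin members (322 to 355) and 313 CPM in VApcMinL members (301 to 325). The 3 other groups were at 0.144 to 0.963 CPM and 0.190 to 2.40 CPM. It was not a gene of every member: 20.7% and 21.7% of them had a UMI, against 0.703% and 1.35% of B cells, and the 10 highest cells held 41.3% and 29.6% of its UMIs. Mmp10 lies on chromosome 9 of GRCm38, from 7502352 to 7510240 on the plus strand. Its promoter is shown because it leads these genes and holds both motifs searched. The window runs from 250 bases before to 50 bases after the RefSeq start (GRCm38.p6, chr9:7502092-7502391, plus strand), with the matches in capitals.

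Mmp10: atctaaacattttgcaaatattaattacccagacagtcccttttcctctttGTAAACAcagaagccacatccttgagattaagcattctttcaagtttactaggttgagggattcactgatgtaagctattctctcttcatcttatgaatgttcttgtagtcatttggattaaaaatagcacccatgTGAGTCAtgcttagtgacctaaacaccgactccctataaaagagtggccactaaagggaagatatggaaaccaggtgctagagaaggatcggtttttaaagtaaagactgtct

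The capitals mark 1 match to TGTTTAC, a forkhead-type motif that lies here on the minus strand, and 1 match to TGANTCA, the motif bound by AP-1 factors, both searched on both strands. Among all 32851 promoter windows, 7.81% held TGANTCA and 3.65% held TGTTTAC. Of the 14 genes leading over the other groups, 12 were matched in the RefSeq table, and 2 of them, Mmp10 and 1 of 3 starts of Pde1c, held each motif. A match describes letters in this window and was not tied to any factor here.

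Adgrl3, an adhesion receptor of the latrophilin family, was at 83.2 CPM in ApcMin and 148 CPM in VApcMinL members, and at most 2.26 CPM in any other group. Bmp5, a BMP ligand, was at 108 and 147 CPM, and the other groups lay between 0.571 and 4.05 CPM. Bmp5 was found in 44.7% and 48.0% of members and in 0.141% and 0.225% of B cells. P2rx1, an ATP-gated cation channel, was at 47.8 and 53.2 CPM. Col6a4, a chain of collagen VI, was at 54.8 and 62.4 CPM. Sertm1 was at 27.4 CPM with 0 UMIs in all 3 other ApcMin groups, a log2 ratio of at least 5.99 when 3 counts were taken as the floor of each group, and at 42.1 CPM in VApcMinL. These 6 genes were detected in 14.1% (Sertm1) to 45.5% (Adgrl3) of ApcMin members, and Adgrl3 was detected in 52.8% of VApcMinL members.

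Further genes led over the other groups at lower levels. Hpse2, a heparanase-like protein, was at 56.9 and 97.2 CPM. Pdlim3, a protein of actin filaments, was at 69.2 and 82.4 CPM, and the transcription factor Dach1 was at 54.2 and 51.7 CPM. Pde1c, which breaks down cyclic nucleotides, was at 31.6 and 53.2 CPM, and Kcnk3, a potassium channel, at 16.6 and 29.2 CPM. Syt13, Eva1a and Frmd5 completed the 14, with 22.9, 18.5 and 11.7 CPM in ApcMin and 29.3, 18.5 and 42.7 CPM in VApcMinL. The smaller log2 ratio of each of the 14 over the highest other group lay between 4.18 (Hpse2) and 7.03 (Mmp10).

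Among the genes under every other group, Ogn, a small matrix proteoglycan, was at 185 CPM in ApcMin and 150 CPM in VApcMinL members, and between 1350 and 1918 CPM elsewhere. Cd81, a tetraspanin, was at 59.7 and 21.2 CPM, against 385 to 764 CPM. Ebf1, a transcription factor of stromal and B cells, was at 46.1 and 37.8 CPM, against 275 to 988 CPM. The scavenger receptor Scara5 was at 67.7 and 71.7 CPM, and Nfkbiz, a regulator of the NF-kB response, at 55.0 and 94.0 CPM. Flrt2, Lbp, Steap4, Fap and Adm, of which Adm encodes adrenomedullin and Fap a protease of activated fibroblasts, were between 6.80 and 44.2 CPM in members and between 29.7 and 508 CPM in the other groups. For 29 genes under the other groups the 10 highest members held most of the UMIs, and these were passed over.

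**Figure D2:**
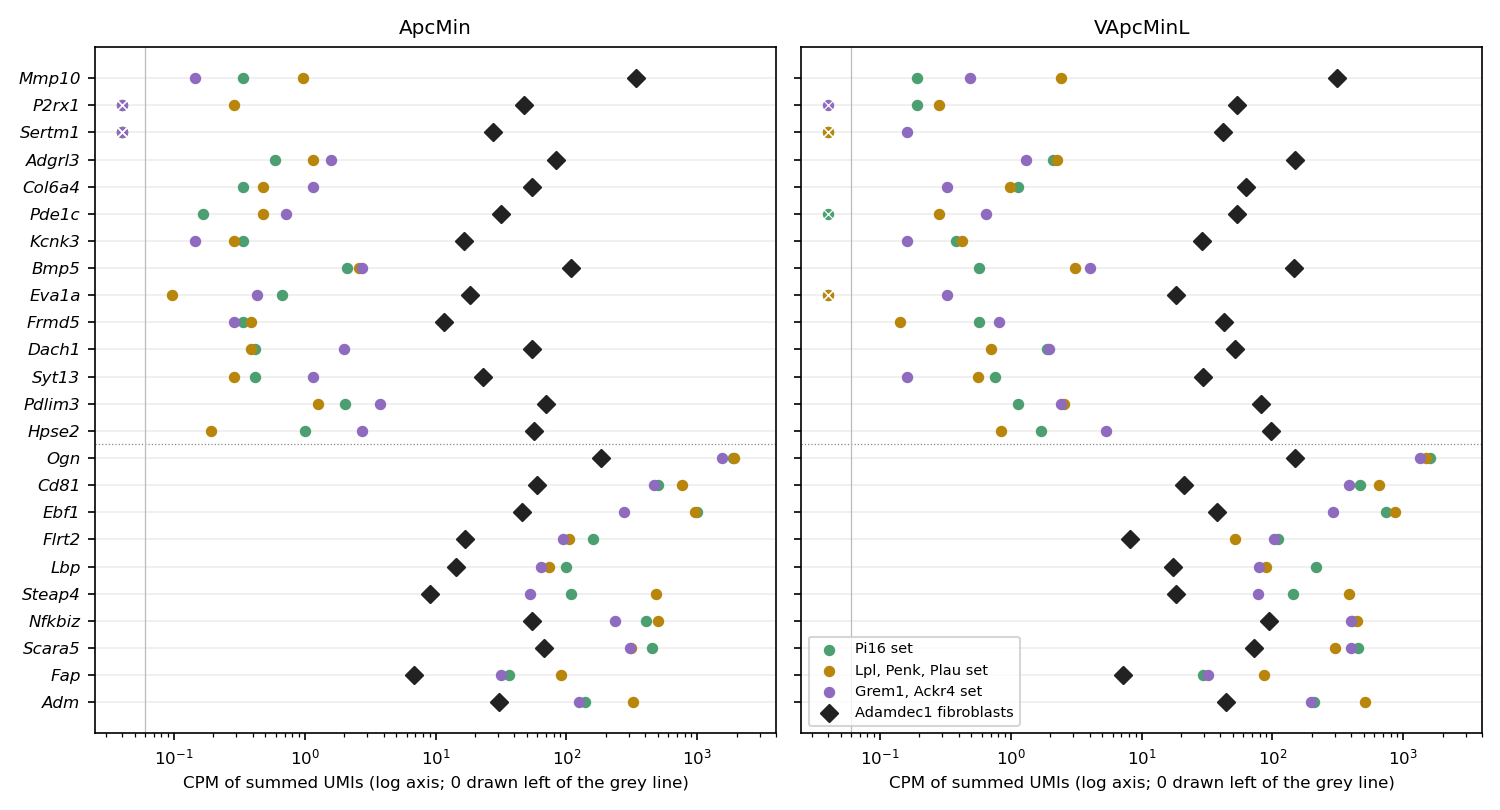
Levels in CPM (log axis) of the 14 genes leading over and the 10 genes leading under the other fibroblast groups, which a dotted line separates, in ApcMin (left) and VApcMinL (right). Black diamonds are the Adamdec1 fibroblasts and coloured circles the other groups, each the sum over cells of 1 library; crossed circles are 0 UMIs. Mmp10 was at 338 and 313 CPM in Adamdec1 fibroblasts and at most 2.40 CPM elsewhere.

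Lists of genes with known roles were then followed through the members. The lists were written with results of these data known, and the counts are past 2-fold against the mean of the 3 other groups in both libraries, so the background is 4.37% over and 4.91% under. They describe the selected cells, and no list was tested.

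Of 8 BMP ligands measured, 6 were over the mean of the other groups (Bmp2, Bmp3, Bmp4, Bmp5, Bmp6 and Bmp7) and 1 was under. The list's median log2 ratio was 1.94 in ApcMin and 1.65 in VApcMinL. Bmp4 was at 483 and 480 CPM in members, and between 70.4 and 284 CPM in the other groups. Bmp2 was at 177.5 and 124 CPM, and Bmp6 at 66.2 and 43.7 CPM. Gdf10 lay at the other end, with 14.2 and 14.9 CPM in members and 61.4 to 352 CPM elsewhere. When members without Sfrp1 or with Barx1, described below, were left out, an alternative chosen after seeing the data, Bmp3 and Bmp7 no longer counted as over, which left 4 of 7. Of the 8 ligands 7 then reached the UMI minimum for genes, so Bmp3 may have gone unmeasured.

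Of 7 BMP antagonists, 0 were over the mean in both libraries and 2, Fst and Chrdl1, were under. Fst, or follistatin, had 1.06 and 2.38 CPM in members and between 36.1 and 124 CPM in the other groups. Twsg1, a BMP-binding protein, was at 277 and 207 CPM, over the mean by a log2 ratio of 1.06 in ApcMin and 0.78 in VApcMinL.

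Of 6 measured Wnt ligands, Wnt2b and Wnt4 were over and Wnt11 was under. Wnt4 was at 118.3 and 118.4 CPM in members, against 2.01 to 7.35 CPM in the other groups. Wnt4 had a UMI in 29.3% and 33.7% of members and in 5.06% and 4.94% of B cells. Wnt2b was at 41.6 and 28.2 CPM, which the Grem1-Ackr4 group approached with 26.9 and 26.2 CPM. Wnt5a, a ligand of non-canonical Wnt signalling, was at 72.2 and 63.9 CPM. R-spondins, which strengthen Wnt signals at stem cells, had 0 of 3 past 2-fold, and Rspo3 was at 121 and 88.9 CPM.

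Secreted Wnt inhibitors were split, with 3 of 7 over and 2 under. Sfrp1 was at 4672 and 3956 CPM in members, beside 3354 and 3393 CPM in the Grem1-Ackr4 group. Dkk3 was at 222 and 223 CPM. Frzb was at 41.6 and 56.6 CPM, against 0.252 to 3.45 CPM elsewhere. Sfrp2 and Sfrp4 were at 3.398 and 1.911 CPM in ApcMin, and the Pi16 group held most of these RNAs. Of 6 Lef/Tcf factors and Wnt feedback genes, 0 were past 2-fold, and Tcf7l2 was at 123 and 111 CPM.

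EGF family ligands had 3 of 4 over, in addition to Ereg of the selection. Nrg1, or neuregulin, was at 117 and 90.4 CPM, against at most 8.95 CPM in the other groups. Areg, amphiregulin, was at 25.3 and 22.3 CPM, and Btc, betacellulin, at 21.9 and 33.1 CPM. Of 7 fibroblast growth factors and receptors outside the selection genes, 0 were over and 2, Fgf1 and Fgf18, were under. Fgf18 was at 0.212 and 1.79 CPM in members and at 37.3 to 56.3 CPM in the Pi16 group.

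Among Hedgehog response genes and Fox factors, Ptch1, Hhip, Foxf1 and Foxf2 were over and 0 of the list were under. Ptch1, the Hedgehog receptor and a target of its own pathway, was at 336 and 532 CPM, against 27.6 to 143 CPM in the other groups. Hhip, which binds Hedgehog and is induced by it, was at 107 and 178 CPM. The transcription factors Foxf1 (152 and 195 CPM) and Foxf2 (75.2 and 85.7 CPM) were over too. These 4 genes also counted without the Sfrp1-negative and Barx1-positive members.

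Genes that handle retinoids did not move as a list, with 2 of 12 over and 3 under. Aldh1a3, which makes retinoic acid, was at 631 and 1167 CPM, against 32.6 to 201 CPM, and Rdh10, the preceding enzyme, was at 202 and 240 CPM. Cyp26b1, which breaks retinoic acid down, was at 1.06 and 1.19 CPM, and Dhrs3 and Rarg were under as well. Among genes of prostaglandin synthesis and its receptors 3 of 10 were over and 4 were under. The cyclooxygenase Ptgs1 was at 120 and 156 CPM and the receptor Ptger2 at 23.4 and 22.04 CPM, whereas the inducible cyclooxygenase Ptgs2 was at 163 and 150.5 CPM, against 199.8 to 543 CPM elsewhere. Ptgs2 did not count as under once members with over 2% of UMIs from hemoglobin, immunoglobulin and acinar genes were left out, and Ptgs1 did not count as over without the Sfrp1-negative and Barx1-positive members.

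Chemokines divided into 5 over and 3 under of 13. Cxcl12, which attracts lymphocytes through Cxcr4, was at 1330 and 1519 CPM, beside 930.3 and 1085 CPM in the Grem1-Ackr4 group. Cxcl16, a ligand of Cxcr6, was at 270.5 and 372 CPM, against 25.6 to 74.6 CPM. Ccl8 and Cxcl5 were over at lower levels, as was Cxcl9 with 78.6 and 37.7 CPM. Empty droplets had more Cxcl9, 126 and 138 CPM, and 10 cells held 98.1% and 69.6% of the members' Cxcl9 UMIs. Cxcl1, Ccl2 and Ccl7, which attract neutrophils and monocytes, were under. Cxcl1 was at 68.4 and 192 CPM in members, against 325 to 1878 CPM.

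Among cytokines for immune cells 3 of 16 were over and 2 were under. Kitl, the ligand of the receptor Kit, was at 253 and 366 CPM, against 16.2 to 124 CPM. Tnfsf13b, the B cell survival factor BAFF, was at 79.0 and 100.2 CPM. Il1rl1, the receptor of Il33, was at 36.3 and 11.9 CPM, against at most 5.89 CPM, but 10 cells held 99.4% of its ApcMin UMIs. Il1rl1 no longer counted without the Sfrp1-negative and Barx1-positive members. Of the 16 cytokines 15 then reached the UMI minimum for genes, so Il1rl1 may have gone unmeasured. Il6 was at 32.3 and 55.0 CPM in members, with 125 to 419.5 CPM elsewhere, and Tslp was also under. Of 12 complement genes, C7 was under and 0 were over. Of the 18 immediate early and heat shock genes, which respond to stress and to tissue dissociation, 8 were under and 0 over, with Fosb at 444.5 and 796 CPM, against 1221 to 2306 CPM. Their median log2 ratio was -1.17 in ApcMin and -0.93 in VApcMinL, and 7 of them counted as under in each alternative that left out doubtful members.

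Collagens had 2 of 18 over, Col12a1 and Col18a1, and 1 under, Col5a3, and Col12a1 did not count without the Sfrp1-negative and Barx1-positive members. Col18a1, a collagen of basement membranes, was at 453 and 586.5 CPM, against 68.4 to 101 CPM. Matrix proteases and their inhibitors had 1 of 14 over, Mmp10, and 2 under, the protease Adamts5 and the inhibitor Timp2. Igfbp3 and Igfbp5, which bind insulin-like growth factors, were over, with Igfbp3 at 489 and 985 CPM beside 161 and 719 CPM in the Lpl-Penk-Plau group, whereas Igfbp6 was under with 53.9 and 25.7 CPM. Of 7 contractile genes, 5 were over (Acta2, Tagln, Myh11, Mylk and Tpm2), and Tagln did not count without the Sfrp1-negative and Barx1-positive members. Acta2, smooth muscle actin, was at 92.6 and 181 CPM, against 7.22 to 35.9 CPM.

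Transcription factors that mark gut regions gave 2 of 8 over and 4 under. Nkx2-3, a factor of mid and hindgut mesenchyme, was at 353 and 494 CPM, against 74.5 to 159 CPM, and Tbx3 was at 48.8 and 49.6 CPM. Gata6 was at 1.06 and 1.07 CPM, against up to 54.6 CPM, and Six2, Eya4 and Isl1 were under. Among Hox genes of groups 1 to 8, Hoxc6 was over and Hoxb8 under of 17, and of the 13 genes of groups 9 to 13 none reached 200 UMIs. Of 9 genes of subepithelial fibroblasts, 5 were over (Sox6, Bmp3, Bmp7, Nrg1 and Enho) and 2 under. Without the Sfrp1-negative and Barx1-positive members, 8 of the 9 genes reached the UMI minimum for genes, and Nrg1 and Enho of these 5 still counted. Of 4 MHC class II genes H2-Aa was over, but the libraries differed in its direction when barcodes were thinned to 3000 UMIs before the selection. Of 3 cell cycle genes 0 were past 2-fold.

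**Figure D3:**
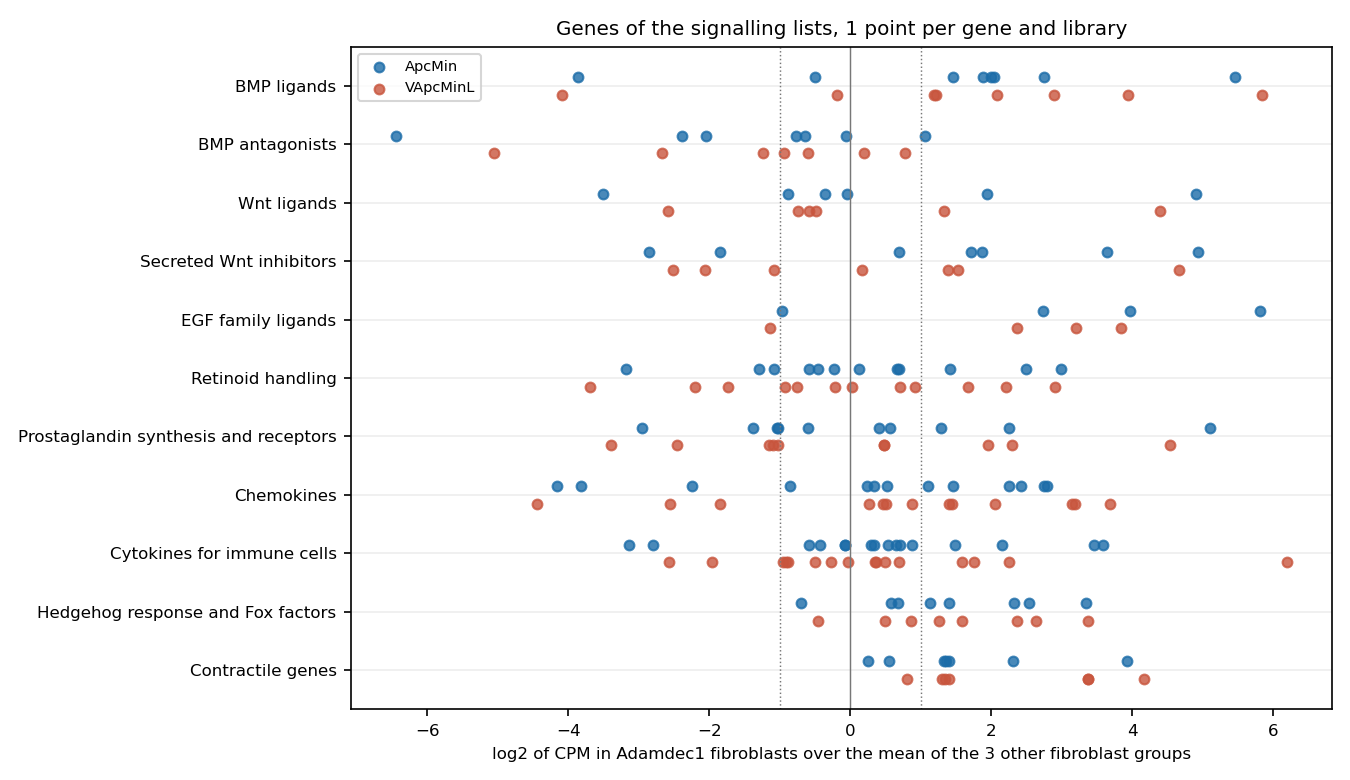
Log2 ratio of CPM in Adamdec1 fibroblasts over the mean of the 3 other fibroblast groups for every measured gene of 11 lists, 1 point per gene and library (blue ApcMin, red VApcMinL). The dotted lines are 2-fold; 6 of 8 BMP ligands lay past the right one in both libraries, and Fst was the BMP antagonist farthest to the left.

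The members of the 2 libraries were compared gene by gene to ask what differed in these fibroblasts when the epithelium lacked Lef1. Most genes were close. Over 7515 genes with at least 200 UMIs in members the median log2 ratio of VApcMinL over ApcMin was 0.01, and the median absolute log2 ratio was 0.18. Past 2-fold, 105 genes (1.40%) were higher and 48 (0.639%) were lower in VApcMinL members. With 1 library each, these are differences between 2 libraries.

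Cxcl13, the chemokine that attracts B cells through Cxcr5, was at 284 CPM in ApcMin members (269 to 300) and at 2068 CPM in VApcMinL members (2037 to 2098). The log2 ratio was 2.86 (2.78 to 2.95). Cxcl13 was found in 47.6% of ApcMin and 66.8% of VApcMinL members, and in 28.4% and 55.2% when detection was scaled to 3000 UMIs a cell. B cells had it in 0.281% and 4.27% of cells, so free Cxcl13 RNA was also more frequent in VApcMinL. The median cell had 0 CPM in ApcMin and 282 CPM in VApcMinL, and the 90th percentile lay at 673 and 6243 CPM. In the Grem1-Ackr4 group Cxcl13 went from 566 to 1415 CPM, and in the Lpl-Penk-Plau group from 2.60 to 47.6 CPM, which was under the 62.3 CPM of the VApcMinL empty droplets.

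Pappa encodes pappalysin, a protease that cleaves IGF-binding proteins and releases IGF. It was at 76.2 CPM in ApcMin (68.6 to 84.5) and 514 CPM in VApcMinL members (498 to 529), a log2 ratio of 2.75. It was detected in 34.8% and 70.1% of members, and in 15.6% and 53.1% at 3000 UMIs, against 0.422% and 1.80% of B cells. The other groups moved less, with log2 ratios of 1.13 in the Pi16 group, 0.46 in the Grem1-Ackr4 group and -0.15 in the Lpl-Penk-Plau group. Igfbp3, which binds IGF, was at 489 and 985 CPM, a log2 ratio of 1.009, and Igfbp6 was at 53.9 and 25.7 CPM, a log2 ratio of -1.07. Igfbp3 was not past 2-fold without members with over 2% of UMIs from hemoglobin, immunoglobulin and acinar genes. Igfbp6 was not past 2-fold in either alternative that left out doubtful members. Its log2 ratio was -0.45 without the ApcMin Barx1-positive members, described below.

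Among the other genes that were higher, Cxcl5, a neutrophil chemokine, was at 35.2 and 114 CPM. Zbtb16, a transcription factor known to respond to glucocorticoids, was at 61.2 and 195 CPM, and its log2 ratio of 1.67 lay beside 0.69 to 1.59 in the other groups. The contractile genes Tagln (69.0 and 208 CPM) and Myh11 (12.3 and 39.6 CPM) were higher too, with ApcMin levels under those of the empty droplets (117.5 and 47.9 CPM). In ApcMin and VApcMinL, 10 cells held 49.2% and 34.2% of the Tagln UMIs and 74.1% and 40.4% of the Myh11 UMIs. Tagln was lower in VApcMinL in the Lpl-Penk-Plau and Grem1-Ackr4 groups. Frmd5, which belongs to the 14 leading genes, was at 11.7 and 42.7 CPM, with 10 cells holding 58.2% and 28.2% of its UMIs. A730049H05Rik, Serpina3m and Traf3ip3 were at 5.52, 6.16 and 9.98 CPM in ApcMin and at 22.9, 23.9 and 30.7 CPM in VApcMinL, with 10 cells holding 79.3% of the Serpina3m UMIs in ApcMin. A further 20 genes, mostly digestive enzymes of the pancreas, were passed over because 10 cells held most of their UMIs.

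Spon2, a secreted matrix protein of the spondin family and abundant in every group, was lower in VApcMinL members. It was at 718 CPM in ApcMin (694 to 743) and 262 CPM in VApcMinL members (251 to 273), a log2 ratio of -1.46, and it was found in 96.0% and 74.7% of members. The other groups gave -0.59 to -1.04. Anxa2, a membrane-binding annexin, was at 417 and 156 CPM, Cd55, which protects cells from complement, at 254 and 98.3 CPM, and Tppp3 at 122 and 44.9 CPM. These 3 were under the level of the VApcMinL empty droplets in VApcMinL members (416, 241 and 134 CPM). They were also lower in every other group, by less. The log2 ratios there were -0.63 to -0.76 for Anxa2, -0.25 to -0.72 for Cd55 and -0.58 to -0.92 for Tppp3.

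Nme2, a nucleoside diphosphate kinase, was at 27.8 and 10.1 CPM with log2 ratios of -1.38 to -1.73 in the other groups, so this difference was common to all 4 groups. Shisa3 was at 87.5 and 37.7 CPM. C1qtnf3 was at 96.4 and 41.7 CPM, Bcl6, a transcriptional repressor, at 63.5 and 29.3 CPM, Gamt, an enzyme of creatine synthesis, at 25.3 and 11.2 CPM and Apcdd1, a membrane inhibitor of Wnt signalling, at 25.7 and 12.5 CPM. Bcl6 (-0.48 to -0.99) and Gamt (-0.47 to -1.21) were lower in every other group too, whereas Shisa3, C1qtnf3 and Apcdd1 were not. Of these 20 genes, 18 stayed past 2-fold under every alternative, whereas C1qtnf3 reached -0.92 when barcodes were thinned before the selection and Apcdd1 -0.95 when CPM was averaged over cells.

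**Figure D4:**
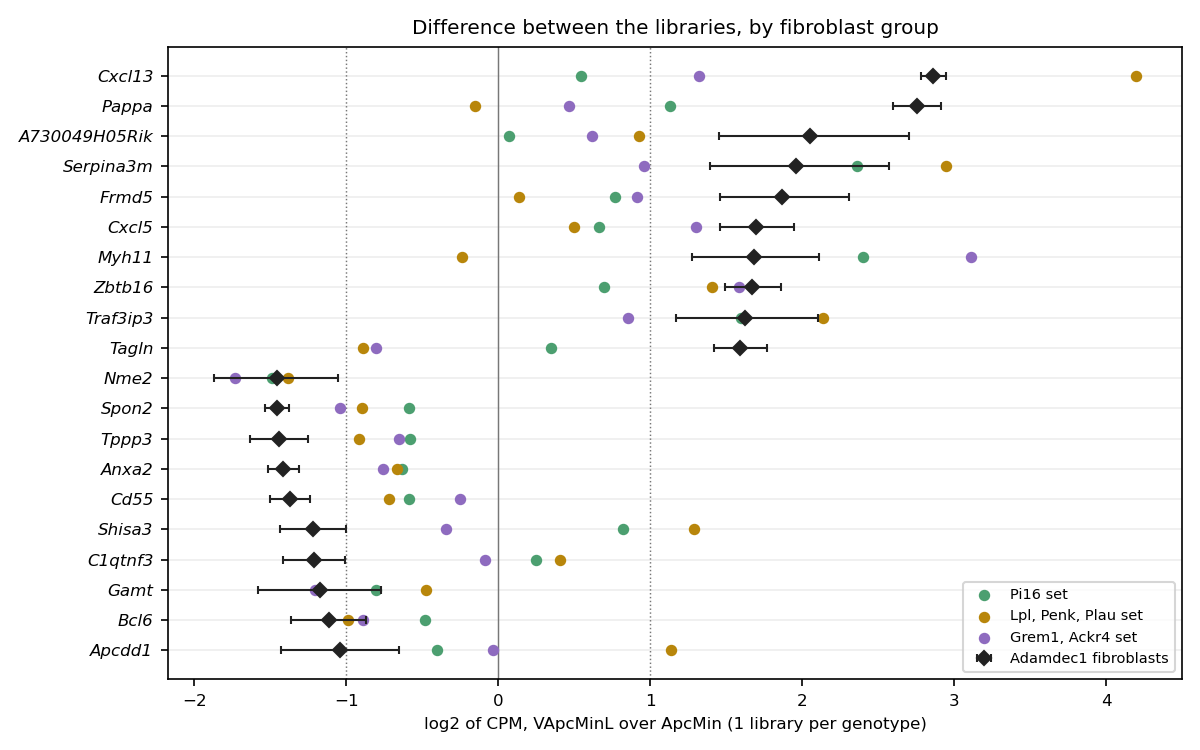
Log2 ratio of CPM, VApcMinL over ApcMin, for the 10 genes most higher and the 10 most lower in Adamdec1 fibroblasts (black diamonds, bars are exact 95% intervals for counting error) beside the 3 other fibroblast groups (circles), with a count under 3 set at 3. Cxcl13 and Pappa lay at 2.86 and 2.75 in Adamdec1 fibroblasts; Nme2 was lower in all 4 groups.

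Of 12 chemokines measured, 5 were higher in VApcMinL (Ccl2, Ccl11, Cxcl1, Cxcl5 and Cxcl13) and 1 was lower (Cxcl9), beside 1.40% and 0.639% of all genes. The list was not tested. Of 7 contractile genes 2 were higher (Tagln and Myh11), and of 6 subepithelial genes 2 (Sox6 and Bmp3). Sox6 had 89.2% of its ApcMin UMIs in 10 cells and no longer counted without the Sfrp1-negative and Barx1-positive members. Only 3 subepithelial genes then reached the UMI minimum for genes, so Sox6 may have gone unmeasured. Of 6 genes of insulin-like growth factors and their binding proteins 1 was higher (Igfbp3) and 1 lower (Igfbp6), with the limits given above. Ccl11, or eotaxin, which attracts eosinophils, went from 1238 to 2504 CPM, a log2 ratio of 1.02. Ccl2 went from 71.6 to 149 CPM and Cxcl1 from 68.4 to 192 CPM, both still under the other groups, while Cxcl9, an interferon-induced chemokine, went from 78.6 to 37.7 CPM, under the empty droplets of both libraries. Ccl11 and Cxcl9 did not count as past 2-fold without the Sfrp1-negative and Barx1-positive members. Of the 12 chemokines 10 then reached the UMI minimum for genes, and Cxcl9 may not have been among them. Of 7 BMP ligands Bmp3 was past 2-fold, with 97.6% of its ApcMin UMIs in 10 cells. Bmp3 did not count in either alternative that left out doubtful members. Only 6 and 5 BMP ligands reached the UMI minimum for genes there. With 41 and 164 UMIs in all members, Bmp3 may have gone unmeasured, so a smaller ratio was not shown. Of 8 Hedgehog genes, 3 Wnt ligands, 4 EGF ligands, 9 retinoid genes and 17 collagens 0 were past 2-fold. The log2 ratio was 0.67 for Ptch1, 0.74 for Hhip, -0.01 for Bmp4 and 0.89 for Aldh1a3, and Nrg1 was past 2-fold once the Sfrp1-negative and Barx1-positive members were left out. Of 12 cytokines Il34 was higher (17.2 and 37.7 CPM), and Il11 and Il1rl1 were lower, with 10 cells holding 99.4% of the ApcMin UMIs of each. Of 11 complement genes Clu was higher (2.97 and 62.2 CPM), with 96.4% of its VApcMinL UMIs in 10 cells. Timp3, an inhibitor of matrix proteases, was lower (315 and 138 CPM). All 18 immediate early and heat shock genes stayed within 2-fold, with a list median of 0.42.

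RNA of other cell types was found in the members and is set beside these results. The 5 erythroid genes summed to 26989 CPM in ApcMin and 1863 CPM in VApcMinL members, 80.2% and 80.5% of it in 10 cells. Acinar genes summed to 63.3 and 1703 CPM, with 98.1% in 10 cells of VApcMinL. Epithelial genes gave 53.5 and 260 CPM and plasma cell genes 3238 and 4080 CPM. Smooth muscle genes gave 134 and 173 CPM, against at most 132 and 106 CPM in the other groups. Blood endothelial genes gave 44.8 and 31.1 CPM, against at most 21.1 and 22.05 CPM. Myeloid genes gave 36.1 and 50.3 CPM, against at most 27.3 and 41.5 CPM. Free RNA, estimated from the share of hemoglobin and immunoglobulin UMIs relative to empty droplets, could hold up to 16.4% of ApcMin and 10.6% of VApcMinL member UMIs. The 5 T cell genes summed to 10 and 18 UMIs (2.12 and 2.14 CPM), above the 0.144 to 0.848 CPM of the other groups, with Cd3e at 0. All of these UMIs lay in 10 cells of each library, which for the 10 ApcMin UMIs could not be otherwise. Genes of interstitial cells of Cajal summed to 269 and 378 CPM, also above the 75.3 to 238 CPM of the other groups. Most of it was Gja1 (210 and 299 CPM) and Etv1 (58.6 and 72.9 CPM). Kit was at 0.637 and 3.22 CPM, and Ano1 at 0.425 and 3.22 CPM. Glial genes gave 5.95 and 6.31 CPM and mesothelial genes 1.70 and 3.93 CPM, with Sox10, Msln and Lrrn4 at 0 in both libraries. Pericyte genes summed to 894 and 772 CPM, above the 39.6 to 435 CPM of the other groups, most of it Rgs5 (816 and 658 CPM), whereas Notch3 was at 1.70 and 2.50 CPM. Their part in the results was not tested. Leaving out members with over 2% of UMIs from hemoglobin, immunoglobulin and acinar genes, an alternative chosen after seeing the data, left 353 and 821 members and a share ratio of 2.36.

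Within the members the largest spread between cells belonged to few genes. Spread was measured as the squared coefficient of variation beyond counting error, over 8684 genes with at least 0.1 UMIs a member. Its median was 0.29 in ApcMin and 0.34 in VApcMinL. Adamdec1, a gene of the selection, gave 0.57 and 0.45, above those medians, and Ereg 3.01 and 2.97. The 10 genes of largest spread were Lyz2, Il6, Gm12840, Iglc2, Chl1, Cxcl1, Kcnj8, Igha, Sox6 and Abcc9. Lyz2, Iglc2 and Igha are genes of myeloid and plasma cells. Il6 gave 36.2 and 26.8, and 7.98% and 11.9% of members had a UMI of it, so a few cells held the cytokine. Kcnj8, Sox6 and Abcc9 were found largely in the same cells, whereas most Chl1 UMIs lay in other members.

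Members with at least 2 of Chl1, Sox6, Kcnj8 and Abcc9 were 15 in ApcMin (3.99%) and 53 in VApcMinL (6.25%), a set made after these values were seen. They held 42.4% and 46.1% of the UMIs of these 4 genes. Most of that was Kcnj8, Abcc9 and Sox6, with 52, 68 and 52 UMIs in ApcMin and 213, 278 and 276 in VApcMinL. Little of it was Chl1, although Chl1 had the highest mean of the 4 (0.612 and 1.15 UMIs a member). Kcnj8 and Abcc9 form a potassium channel of pericytes and other mural cells. Beside those genes, the cells had Bmp3 at 175 and 212 CPM (0.889 and 3.104 CPM in the other members), Bmp7 at 289 and 397 CPM, and Ednrb, an endothelin receptor, at 498 and 631 CPM. Pdgfra was at 2257 and 2767 CPM, against 486 and 598 CPM. Of the pericyte genes outside the set, Notch3 was at 0 and 3.03 CPM, and Rgs5 was at 721 and 602 CPM, against 821 and 663 CPM in the other members. Cspg4 was higher, at 109 CPM in both libraries against 46.02 and 47.1 CPM, as was Pdgfrb at 171 and 165 CPM against 125 and 121 CPM. Mcam had only 2 and 3 UMIs in these cells. Kit and Ano1, genes of interstitial cells of Cajal, were at 0 in ApcMin and at 34.8 and 36.3 CPM in VApcMinL, against 0.517 and 0.388 CPM. These VApcMinL levels came from 23 and 24 UMIs, and few cells held them. Kit was found in 0.59% and Ano1 in 0.83% of all VApcMinL members. Adamdec1 in them was at 1337 and 4327 CPM.

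A split on Sfrp1, likewise chosen after seeing the data, captured much of this. On counts thinned to 3000 UMIs, Sfrp1 was absent in 20 ApcMin members (5.32%, interval 3.28 to 8.10%) and 53 VApcMinL members (6.25%, 4.72 to 8.10%), of which 9 and 38 belonged to the previous set. Of the 20 ApcMin cells, 9 had Barx1, described below. Median depth was similar, 11332 and 10095 UMIs. These cells had Pdgfra at 2100 and 3193 CPM, against 476.5 and 601 CPM in members with Sfrp1, and Adamdec1 at 1308 and 3227 CPM, against 9229 and 11565 CPM. Higher in both libraries were Bmp7 (248 and 480 CPM, against 9.88 and 8.28 CPM), Wnt5a (439 and 419 CPM, against 51.0 and 39.4 CPM) and Bmp5 (706 and 725 CPM, against 73.7 and 107 CPM). The fibril-associated collagen Col12a1 was at 702.5 and 725 CPM, against 67.4 and 78.8 CPM, and Tagln at 435 and 985 CPM, against 47.9 and 154.5 CPM. Complement C3 was at 58.2 and 77.5 CPM, against 1739 and 1858 CPM. Fmo2, Slit3, Fbln1 and Gsn were also lower. Of 7514 genes, 180 (2.40%) were past 2-fold higher in both libraries and 253 (3.37%) lower, in cells chosen on 1 of the genes.

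The members with Sfrp1 were divided again by a UMI of Wnt4 or Bmp5 in the thinned counts. Those with one were 97 in ApcMin (25.8%) and 275 in VApcMinL (32.4%), and those without were 259 (68.9%) and 520 (61.3%). The cells with Wnt4 or Bmp5 had more Mmp10 (733 and 557 CPM, against 167 and 172 CPM), Nrg1 (152 and 162 CPM, against 18.7 and 39.3 CPM) and Cxcl14 (565.5 and 590 CPM, against 90.6 and 135 CPM). P2rx1 followed, with 94.7 and 118 CPM, against 23.5 and 17.3 CPM. Ptch1 was at 561 and 810 CPM, against 256.5 and 367 CPM. Several of the genes leading over the other groups were thus lowest in the largest class of members.

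Other genes were higher in cells with Sfrp1 alone. Grem1 was at 745.5 and 589 CPM, against 301 and 267 CPM in the cells with Wnt4 or Bmp5. Fgf7, a growth factor for epithelium, was at 52.7 and 59.5 CPM, against 24.8 and 22.2 CPM. Scara5 and Ebf1, both low in members, were at 88.5 and 100.4 CPM, against 20.3 and 30.4 CPM, and at 59.0 and 53.0 CPM, against 17.7 and 14.3 CPM. Adamdec1 was at 8660 and 10607 CPM, close to the 10901 and 13433 CPM of the cells with Wnt4 or Bmp5. Of 7259 genes, 48 (0.661%) were past 2-fold higher and 21 (0.289%) lower in both libraries in the cells with Wnt4 or Bmp5. Across single members, log-scaled levels of Wnt4 and Sfrp1 had a Pearson r of -0.45 over 376 cells and -0.39 over 848 cells, which share library and depth.

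**Figure D5:**
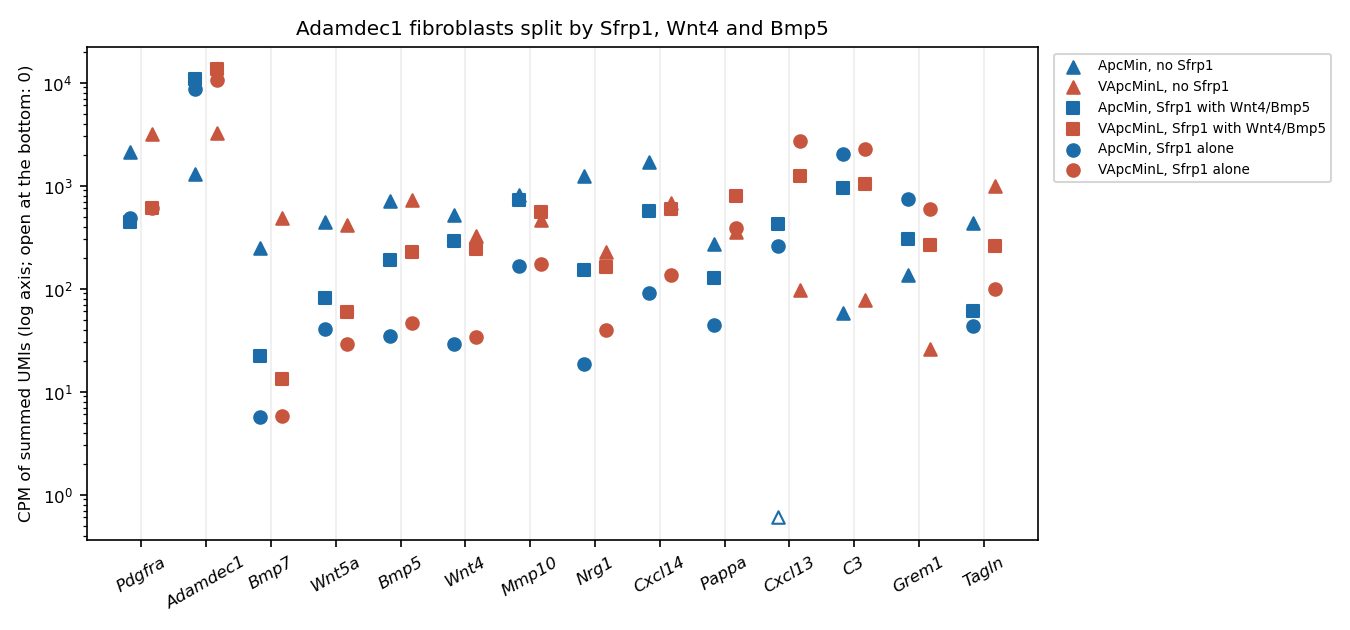
Levels in CPM (log axis) of 14 genes in 3 classes of Adamdec1 fibroblasts, without Sfrp1 (triangles), with Sfrp1 and Wnt4 or Bmp5 (squares) and with Sfrp1 alone (circles), in ApcMin (blue) and VApcMinL (red), each the sum over cells of 1 library. Cells without Sfrp1 had Pdgfra at 2100 and 3193 CPM and C3 at 58.2 and 77.5 CPM; their Cxcl13 in ApcMin was 0 (open triangle).

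The difference between libraries was uneven over these classes. In cells with Sfrp1 alone Cxcl13 went from 259.5 CPM in ApcMin to 2697 CPM in VApcMinL (log2 ratio 3.38, 3.28 to 3.48), and in those with Wnt4 or Bmp5 from 421 to 1242 CPM (1.56, 1.42 to 1.70). Cells without Sfrp1 had 0 and 52 UMIs of Cxcl13. The class with the higher summed Cxcl13 level therefore differed, being the cells with Wnt4 or Bmp5 in ApcMin and those with Sfrp1 alone in VApcMinL. In ApcMin, however, 10 cells held 41.55% of the members' Cxcl13 UMIs. Across single members the Pearson r of Wnt4 and Cxcl13 was -0.004 in ApcMin and -0.22 in VApcMinL. The order of the classes was not tested. Pappa gave log2 ratios of 3.12 (2.88 to 3.38) and 2.66 (2.42 to 2.92) in these 2 classes. In cells without Sfrp1 it was already at 272 CPM in ApcMin and at 354 CPM in VApcMinL, a log2 ratio of 0.38 whose interval of -0.02 to 0.80 includes no difference. Cxcl5 was lower in VApcMinL in cells without Sfrp1 (69.9 and 7.38 CPM, from 18 and 4 UMIs) and higher in the other classes. Spon2 was lower in VApcMinL in all 3 classes (-2.68, -1.35 and -1.39), and Anxa2 likewise (-1.35, -1.27 and -1.46).

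A few members of the ApcMin library stood apart by Barx1, a transcription factor of stomach mesenchyme. It was found in 20 ApcMin members and 2 VApcMinL members, and in 0 B cells. The 20 ApcMin cells had Adamdec1 at 969 CPM, against 9236 CPM in the other ApcMin members, and 0 UMIs of Lrat, Mmp10, Nkx2-3 and Cxcl13. They had Nrg1 at 1332 CPM, against 49.1 CPM, and Postn, the matrix protein periostin, at 3266 CPM, against 53.6 CPM. Six2 (55.8 CPM, against 0) and Isl1 (128 CPM, against 4.26 CPM), transcription factors also known from stomach mesenchyme, were higher in them too. These cells met the selection with little Adamdec1, and Barx1 was at 41.7 CPM in the Pi16 and 67.4 CPM in the Lpl-Penk-Plau group of ApcMin. Without them the log2 ratio between libraries was 2.78 for Cxcl13 and 3.05 for Pappa, and Nrg1 turned from -0.38 to 0.88. Leaving out the Sfrp1-negative and the Barx1-positive members together gave 345 and 793 members and a share ratio of 2.33 (2.05 to 2.65).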

How the data were processed

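The data were 2 droplet scRNA-seq libraries, 1 per genotype, so no p-values were computed. The deposited values are raw UMI counts for 31053 genes and 6794880 barcodes per library, which the authors made with Cell Ranger, with no normalization or cell calling. The count file headers name release 3.1.0, and the submitters' processing notes name Cell Ranger 2.1.1, Seurat 3.1.1 and the builds mm10 and GRCm38. The members and gene lists were chosen with earlier results of these data known.

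Barcodes were selected by the rule in the report. No doublet caller was used for the main values, and leaving out the highest Scrublet scores (scanpy 1.11.5) at a rate of 0.8% per 1000 barcodes was an alternative. UMIs were summed per group and library and divided by the total (CPM). Genes needed 200 UMIs, and a ratio used a floor of 3 counts. Empty droplets were barcodes of 20 to 100 UMIs. B cells, used as background, were barcodes past the limits with Cd79a and Ptprc and without Pdgfra. Intervals were exact Poisson, Clopper-Pearson and conditional binomial intervals at 95%, for counting error only.

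Named genes were the 14 highest and 10 lowest log2 ratios against the other groups, the 10 largest and 10 smallest ratios between libraries and the 10 of largest spread. Selection, mitochondrial, Xist and Y-linked genes were left out, as were genes between libraries whose higher level was under 2 times that of the same library's empty droplets, and genes with most of their UMIs in 10 cells of the library where they were higher. Role lists (26 lists, 299 of 301 entries matched) named the genes of highest level and largest ratio in each, and other named genes came from the lists or were chosen after their values were seen. Ccl19 and Hoxd4, with 2 gene IDs per symbol, were left out, as was Ccl21a of the lymphatic markers. Some list members are not reported here. Promoters came from RefSeq (GRCm38.p6). The ratios and the spread were tested on simulated data. The software was anndata 0.12.19, matplotlib 3.10.9, pandas 2.3.3, numpy 2.4.6 and scipy 1.17.1 under Python 3.11.15.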

Additional observations from a re-analysis of the deposited data

Results flagged for a closer look

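In 3 of the 20 genes compared between the libraries, another fibroblast group moved in the opposite direction with an interval for counting error that left out 0. Each is 1 library against 1 library, and the difference between the groups was not tested. Tagln had a log2 ratio of VApcMinL over ApcMin of 1.59 in Adamdec1 fibroblasts, and of -0.89 in the Lpl-Penk-Plau group and -0.80 in the Grem1-Ackr4 group. Shisa3 had -1.22 in Adamdec1 fibroblasts, and 0.82 in the Pi16 group and 1.29 in the Lpl-Penk-Plau group. Pappa had 2.75 in Adamdec1 fibroblasts and -0.15 (-0.29 to -0.02) in the Lpl-Penk-Plau group.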

How the results depend on the processing

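The share ratio of 2.29 ranged from 2.22 to 2.48 over 10 other selections, 2 of them chosen after seeing the data. Counts past 2-fold depended on the gene minimum. With 50 UMIs, 350 genes were over the other groups, 289 were higher and 116 lower in VApcMinL members, and with 1000 UMIs the numbers were 96, 38 and 15, fewer or more genes being tested. Without the limit on Ptprc, Epcam and Pecam1, 204 genes were higher in VApcMinL, and with free RNA subtracted 83 were lower; the cause was not tested. Centring the ratios on their median turned 219 over and 175 under the other groups into 172 and 232. No named gene past 2-fold changed sign between the libraries, or in both libraries against the other groups. Against the other groups a ratio was set at 0 when the 2 libraries differed in direction. Cxcl9 (2.79) and Il1rl1 (3.58) fell to this 0 without the 10 cells of each library with the most UMIs of the gene. H2-Aa (1.03) did so when barcodes were thinned before the selection. Cd74 over the other groups went from 0.63 to -0.53 without the 10 cells of each library with the most Cd74 UMIs. Nrg1 between libraries went from -0.38 to 0.88 without the ApcMin Barx1-positive members. Of 1801 values of named genes under the alternatives, 1438 moved by no more than the distance from the middle of their interval to its end. By rule, a value whose interval had no finite end counted with these. All 14 genes over and 10 under the other groups stayed past 2-fold. No paired analysis was possible because there is 1 library per genotype, which leaves no replicate numbers to pair. Depth limits genes near 3 counts, and the number of mice limits every comparison of genotypes.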
